A study of Arabidopsis thaliana with 9 samples.

Results

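The IQD proteins (IQ67 domain proteins) are plant calmodulin-binding proteins, and their transcripts were followed here in de-etiolating seedlings of *Arabidopsis thaliana*. Of 33 IQD genes in the RefSeq annotation, 15 had a probe set on the array that the probe annotation ties to that gene alone, and the other 18 were not analysed here. The 9 described below, of 22746 probe sets tested, were chosen by a mean log2 signal over all arrays of at least 6. The members were thus selected on their mean level, which is given as a description only. The family itself was chosen with earlier results of these data known. Its counts and medians beside those of all probe sets are therefore descriptions too. The 9 were IQD19, IQD21, IQD22, IQD23, IQD24, IQD28, IQD30, IQD31 and IQD32, of which 4 lie on chromosome 1, 1 on chromosome 3, 2 on chromosome 4 and 2 on chromosome 5.

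IQD proteins carry a plant-specific domain of repeated IQ motifs, short sequences that hold calmodulin, the small protein that binds calcium and passes calcium signals on to its partners. Several family members sit on cortical microtubules or at the plasma membrane and are thought of as scaffolds between calcium signals and the cytoskeleton. The family is known for roles in cell shape, the pattern of the cell wall and the plane of cell division, processes that are active in a seedling leaving the dark.

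The study asked how nuclear transcripts respond when less 5-aminolevulinic acid (ALA), the precursor of chlorophyll and haem, is made. Whole seedlings were grown for 3 days in darkness, moved to light for 6 h and hybridised to ATH1 GeneChips, 3 arrays for each of 3 groups. Col-0 seedlings were the untreated wild type. The GAB group was the same wild type with 10 µM gabaculine, which blocks the aminotransferase that forms ALA, and the third group was untreated gun4-1, which carries a mutant allele of GUN4, the activator of Mg chelatase, and makes less ALA. The GUN4 transcript was not analysed here, so the genotype could not be checked against its own gene. Array medians lay between 6.41 and 6.57, arrays of 1 group correlated at r = 0.996 to 0.997 over all probe sets, and the green-tissue gene RCA (Rubisco activase) had a mean log2 signal of 14.3 in Col-0. The study's methods describe its experiments as independently repeated without saying what was separate for the arrays, and p-values measure the spread between the 3 arrays. In RNA from whole seedlings, fewer cells of a type and less RNA per cell cannot be told apart.

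In gun4-1 the mean signal of all 9 IQD transcripts was below Col-0 (44.9% of all probe sets had a difference below 0). Over probe sets with a mean of at least 6 the median difference was -0.014, so differences below 0 were commoner among them than over all. For IQD21, IQD23 and IQD30 the decrease passed both limits of the test. A probe set was counted as changed at a Benjamini-Yekutieli adjusted p of at most 0.05 from limma together with a fold change above 1.5 or below 0.667. The 3 of 9 amount to 33.3%, and 4.46% of all probe sets passed in this direction (5.93% of the 12639 probe sets with a mean of at least 6). No IQD transcript increased past these limits, against 2.44% of all probe sets. Under GAB none of the 9 passed the limits, where 0.69% of all probe sets fell and 0.769% rose (0.965% fell among those with a mean of at least 6). Of the 9 differences under GAB 8 were below 0 (7 after quantile normalization, 6 with array medians set equal and 5 without Col-0 replicate 2), against 50% of all probe sets. At an unadjusted p below 0.05, 5 of the 9 were lower under GAB (10.9% of all probe sets) and 8 of the 9 in gun4-1 (17.7%).

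**Figure D1:**
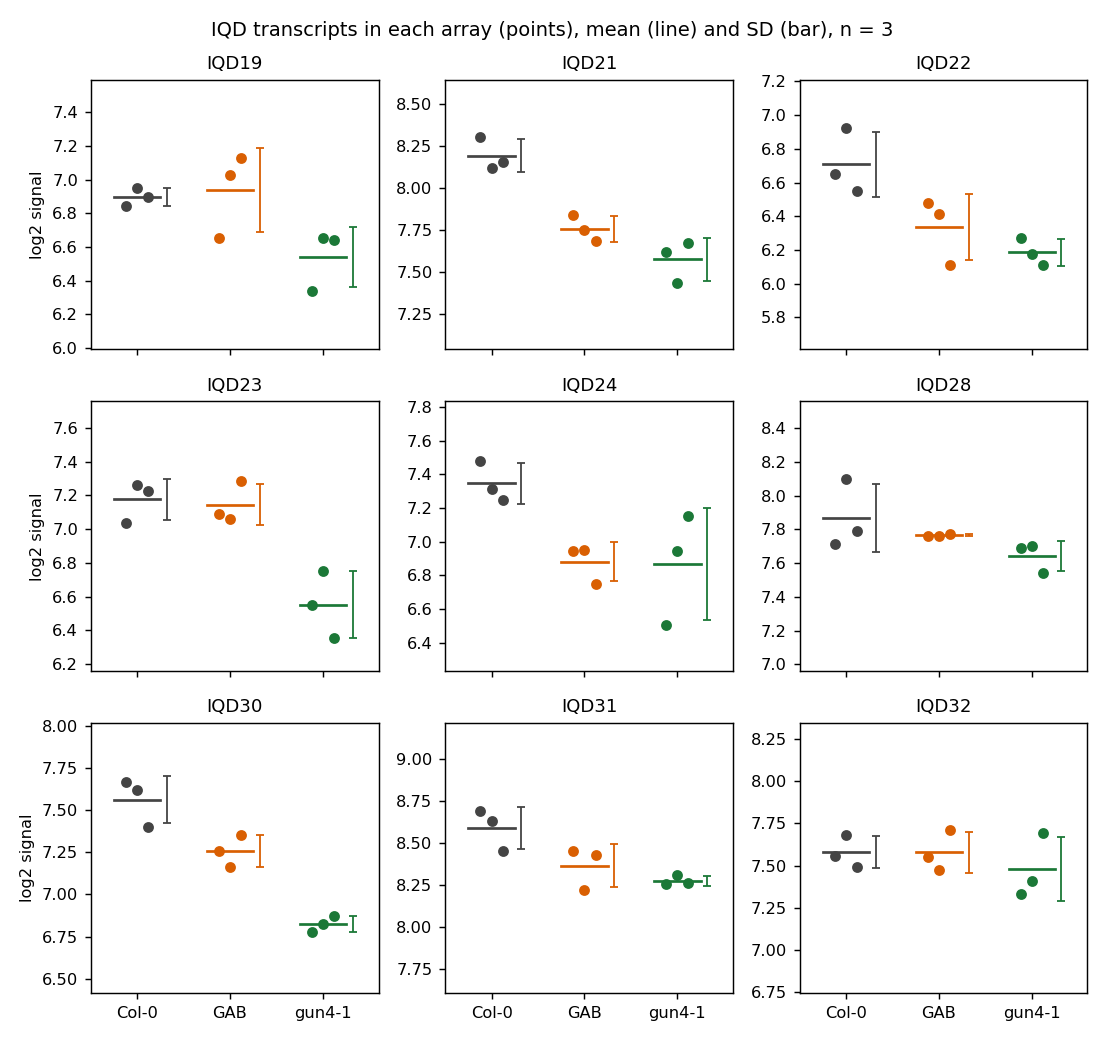
Log2 signal (vertical axes) of the 9 IQD transcripts in each Col-0, GAB and gun4-1 array. Points are arrays, lines group means and bars the SD (n = 3); every panel spans the same log2 range around its own centre. For IQD30 the groups separate into 3 levels, with means of 7.56, 7.26 and 6.83, whereas for IQD23 only gun4-1 lies apart.

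IQD30 (AT1G18840) showed the largest difference between gun4-1 and Col-0 among the 15 IQD transcripts analysed. Its log2 signal was 7.67, 7.62 and 7.40 in the Col-0 arrays, 7.26, 7.16 and 7.35 in the GAB arrays, and 6.78, 6.83 and 6.87 in the gun4-1 arrays. The 3 groups formed a descending staircase without any overlap, the lowest Col-0 array lying just above the highest GAB array. In gun4-1 the transcript fell to 0.600 of the Col-0 level, a log2 difference of -0.74 (SE 0.09, limma adjusted p = 0.00108, lower in 3 of 3 arrays). The difference between GAB and Col-0 was -0.30 (95% interval -0.50 to -0.11, limma adjusted p = 0.693) and that between gun4-1 and GAB was -0.43 (-0.63 to -0.24, adjusted p = 0.0721), neither past the limits.

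IQD21 (AT3G49260) had log2 signals of 8.30, 8.12 and 8.15 in Col-0, 7.84, 7.75 and 7.68 with GAB, and 7.62, 7.43 and 7.68 in gun4-1. Both low-ALA groups lay below every Col-0 array and close to each other. In gun4-1 the transcript decreased to 0.654 of the Col-0 level (log2 difference -0.61, SE 0.09, limma adjusted p = 0.00402). With GAB the difference was -0.43 (95% interval -0.63 to -0.24, limma adjusted p = 0.135), and gun4-1 differed from GAB by -0.18 (-0.37 to 0.01), an interval that includes 0.

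IQD23 (AT5G62070) followed another pattern. Its log2 signals were 7.04, 7.26 and 7.22 in Col-0 and 7.09, 7.06 and 7.29 with GAB, but 6.55, 6.75 and 6.35 in gun4-1. The GAB arrays mingled with the Col-0 arrays, and every gun4-1 array lay below all 6 of them. The decrease in gun4-1 was to 0.649 of the Col-0 level (log2 difference -0.62, SE 0.11, limma adjusted p = 0.0158), while GAB differed from Col-0 by -0.03 (95% interval -0.27 to 0.21). When the mutant was set against the treated wild type, IQD23 was also the single IQD transcript past both limits, at 0.663 of the GAB level (log2 difference -0.59, SE 0.11, limma adjusted p = 0.0400).

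The limit on fold change corresponds to 0.58 on the log2 scale, close to the differences of IQD21 and IQD23. Leaving out Col-0 replicate 1 moved IQD21 to -0.56 and leaving out gun4-1 replicate 2 moved it to -0.54, under the fold limit. IQD23 in gun4-1 lost its call without Col-0 replicate 2 (limma adjusted p = 0.103), Col-0 replicate 3 (0.0874), gun4-1 replicate 1 (0.0647) or gun4-1 replicate 3 (0.0724), whereas IQD30 kept its call whichever array was left out. With array medians set equal only IQD30 of the 3 remained past the limits, and by the methods' t-test, which called 0.0132% of all probe sets, none did.

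**Figure D2:**
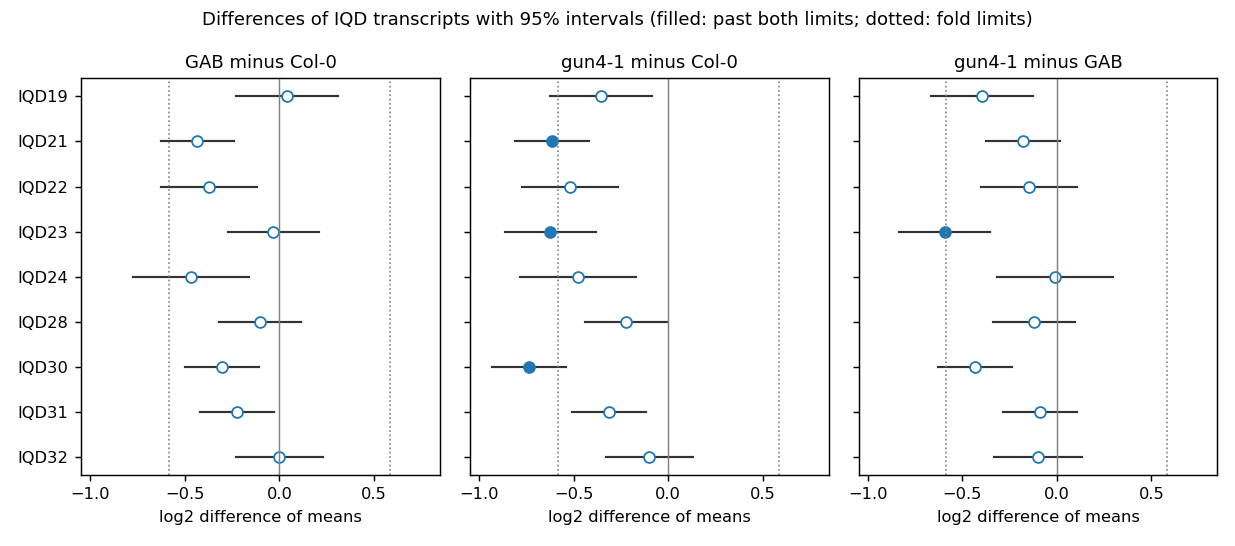
Log2 difference of group means (horizontal axes) of each IQD transcript in the 3 comparisons, with 95% intervals from limma; filled points passed both limits, dotted lines mark the fold limits. IQD21, IQD23 and IQD30 are filled in gun4-1 minus Col-0, IQD23 in gun4-1 minus GAB, and none in GAB minus Col-0.

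Of the 6 remaining transcripts, 5 lay in gun4-1 below all 3 Col-0 arrays without passing the limits. IQD22 (AT4G23060), known as an early target of DELLA proteins in gibberellin signalling, was the member nearest above the level limit, with a mean of 6.41. Its log2 signals were 6.65, 6.92 and 6.55 in Col-0, 6.48, 6.42 and 6.11 with GAB, and 6.27, 6.17 and 6.11 in gun4-1. Both low-ALA groups stayed under the lowest Col-0 array and overlapped each other. The difference from Col-0 was -0.37 with GAB (95% interval -0.63 to -0.12, limma adjusted p = 0.891) and -0.52 in gun4-1 (-0.78 to -0.27, adjusted p = 0.0725).

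IQD24 (AT5G07240) had the largest difference under GAB, again without passing the limits. Its Col-0 signals were 7.48, 7.31 and 7.25, those with GAB 6.95, 6.95 and 6.75, and those of gun4-1 6.51, 6.95 and 7.15. The GAB arrays were narrowly grouped, whereas gun4-1 ranged from the lowest value of all 9 arrays almost up to Col-0. The difference was -0.47 with GAB (95% interval -0.77 to -0.16, limma adjusted p = 0.766) and -0.48 in gun4-1 (-0.79 to -0.17, adjusted p = 0.300), and between gun4-1 and GAB -0.01 (-0.32 to 0.29).

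IQD19 (AT4G14750) resembled IQD23 in that only gun4-1 lay low, with 6.34, 6.65 and 6.64 against 6.84, 6.95 and 6.90 in Col-0 and 6.66, 7.03 and 7.13 with GAB. The lowest GAB array came within 0.01 of the highest gun4-1 array. IQD19 differed by -0.35 between gun4-1 and Col-0 (95% interval -0.62 to -0.08, limma adjusted p = 0.619) and by 0.04 between GAB and Col-0 (-0.23 to 0.31), the 1 positive difference of the 9.

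IQD31 (AT1G74690) had log2 signals of 8.69, 8.63 and 8.45 in Col-0, 8.45, 8.22 and 8.43 with GAB, and 8.26, 8.31 and 8.27 in gun4-1. The gun4-1 arrays were tightly grouped below Col-0, and 1 GAB array equalled the lowest Col-0 array. The differences from Col-0 were -0.22 with GAB (95% interval -0.42 to -0.03) and -0.31 in gun4-1 (-0.51 to -0.12, limma adjusted p = 0.274).

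IQD28 (AT1G14380) gave 7.72, 8.10 and 7.79 in Col-0, 7.76, 7.76 and 7.77 with GAB, and 7.69, 7.70 and 7.54 in gun4-1. Its gun4-1 arrays lay below Col-0 by a margin smaller than the spread within Col-0, and the difference was -0.22 (95% interval -0.44 to -0.01, limma adjusted p = 1). IQD32 (AT1G19870) was the member with the smallest differences, -6.8e-05 with GAB (95% interval -0.23 to 0.23) and -0.10 in gun4-1 (-0.33 to 0.13). Its signals of 7.56, 7.68 and 7.49 in Col-0, 7.55, 7.47 and 7.71 with GAB, and 7.33, 7.41 and 7.69 in gun4-1 overlapped throughout. These intervals include decreases to 0.795 of the Col-0 level in gun4-1 and increases to 1.09 of it, so that a modest change of IQD32 was not detectable with 3 arrays.

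Over the 9 transcripts, the median log2 difference from Col-0 was -0.22 with GAB (range -0.47 to 0.04) and -0.48 in gun4-1 (range -0.74 to -0.10). Without gun4-1 replicate 1 the latter was -0.30, and the median with GAB was -0.066 at a level limit of 5 and -0.031 without a limit. The median over all probe sets was 9.5e-06 and 0.025, and over probe sets with a mean of at least 6 it was -0.0022 and -0.014. Both comparisons share the Col-0 arrays and are not independent. In 8 of the 9 the means descended from Col-0 over GAB to gun4-1, an order found in 19.9% of all probe sets and 24.3% of those with a mean of at least 6; IQD19 was the exception. IQD32 follows this order by a difference of -6.8e-05 only, and the differences of IQD19, IQD23, IQD28 and IQD32 under GAB changed sign in some of the alternative settings, as did that of IQD24 between gun4-1 and GAB (-0.01, range over settings -0.15 to 0.17).

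All 3 gun4-1 arrays lay below all 3 Col-0 arrays for 8 of the 9 transcripts, against 18% of all probe sets and 24.4% of those with a mean of at least 6. With GAB this held for 4 of the 9, namely IQD21, IQD22, IQD24 and IQD30, against 12.9% and 17%. Array by array, 9, 9 and 8 of the 9 transcripts in gun4-1 replicates 1, 2 and 3 were below the lowest Col-0 value, and 5, 6 and 5 of the 9 in the GAB replicates. The share over all probe sets was not determined for single arrays, so these counts are a description only. The median deviation of the 9 from their Col-0 means was -0.56, -0.40 and -0.33 in the gun4-1 arrays and -0.23, -0.29 and -0.16 in the GAB arrays. Over all probe sets it was 0.010, 0.0077 and 0.036 in the gun4-1 arrays and -0.0030, 0.0094 and -0.0083 in the GAB arrays. The low values were thus spread over all 3 arrays of a group, and the Col-0 arrays themselves deviated by -0.02, 0.06 and -0.08.

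**Figure D3:**
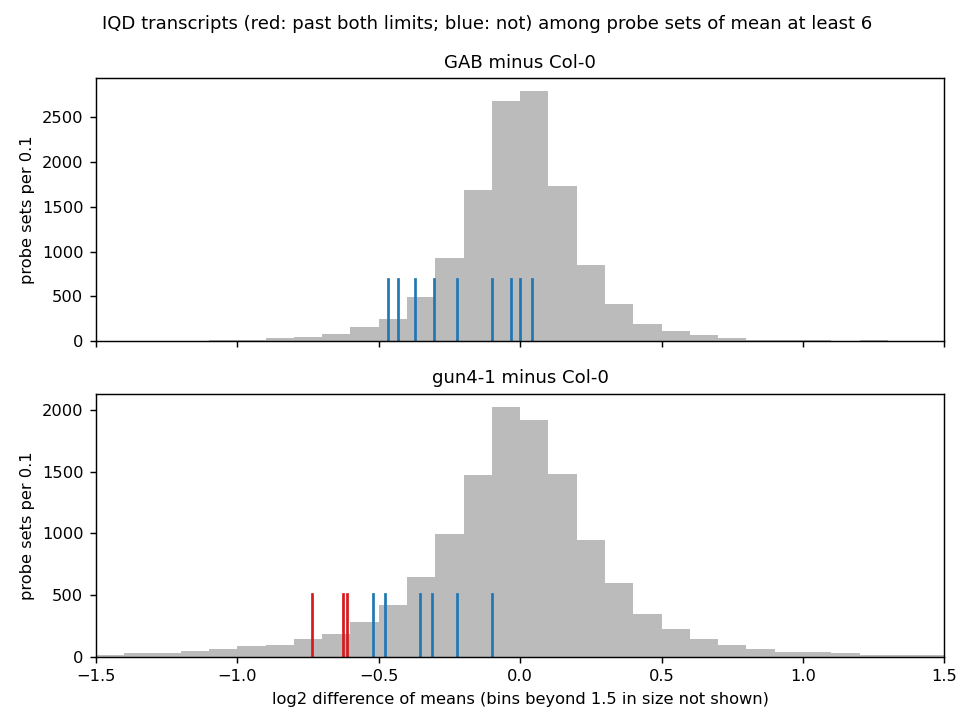
Distribution of log2 differences (horizontal axis, bins of 0.1) over probe sets with a mean log2 signal of at least 6 (vertical axis, number of probe sets), with the 9 IQD transcripts as vertical ticks, red where past both limits. In gun4-1 minus Col-0 the ticks run from -0.74 to -0.10, all left of 0; in GAB minus Col-0 they run from -0.47 to 0.04.

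Between gun4-1 and GAB, a comparison that does not use the Col-0 means, all 9 differences were below 0 (8 after quantile normalization or with array medians set equal, against 44.6% of all probe sets). Their median was -0.15 (range -0.59 to -0.01), against 0.024 over all probe sets and -0.0068 over those with a mean of at least 6. Of the 9, 1 passed the limits (11.1%, against 2.48% of all probe sets lower and 1.32% higher). The call of IQD23 in this comparison was lost when any 1 array other than gun4-1 replicate 2 was left out, with limma adjusted p between 0.0502 and 0.217. It was also lost with the replicate number as a block (limma adjusted p = 0.0513). For 5 of the 9, IQD19, IQD21, IQD23, IQD28 and IQD30, every gun4-1 array lay below every GAB array, against 14.2% of all probe sets. The intervals of IQD21, IQD22, IQD24, IQD28, IQD31 and IQD32 included 0, so a difference of these 6 transcripts between the mutant and the inhibitor was not resolved.

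The 6 dimmer IQD transcripts gave no call. IQD15, IQD16 (also known as ABS6, a microtubule-associated member), IQD18, IQD26, IQD27 and IQD33 had signals under 6 in every array, the nearest to the limit being IQD33 at 5.64. None passed the limits in any comparison, all had overlapping groups, and their median differences were 0.01 with GAB (range -0.26 to 0.07) and 0.08 in gun4-1 (range -0.28 to 0.19). IQD33 had log2 signals of 5.32, 5.81 and 5.57 in Col-0, 5.50, 5.84 and 5.57 with GAB, and 5.75, 5.59 and 5.81 in gun4-1. Its arrays intermixed, with a difference of 0.15 between gun4-1 and Col-0 (95% interval -0.13 to 0.43). Among all probe sets with a mean under 6, calls in gun4-1 were also fewer, at 2.61% lower and 0.9% higher. The difference between the brighter and the dimmer IQD transcripts was not tested.

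Across the 9 arrays the IQD transcripts varied together to different degrees. Pearson's r over the 36 pairs had a median of 0.57 and ran from 0.11 (IQD22 and IQD32) to 0.89 (IQD30 and IQD31). After group means were removed the median was 0.09, with a range of -0.92 (IQD21 and IQD23) to 0.86 (IQD30 and IQD31), so that IQD30 and IQD31 varied together within groups as well as between them. These are descriptions over 9 arrays in 3 groups.

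The named probe sets most like IQD30 over the 9 arrays, among 6685 with a mean of at least 6, were AT2G41650 (r = 0.984), NET1B (0.977), AT2G37130 (0.974), AT3G62040 (0.971) and EXPB1 (0.971). NET1B belongs to the Networked family of actin-binding proteins and EXPB1 is a beta-expansin, a protein that loosens cell walls. Since these 5 were chosen for following IQD30 over the same arrays, and IQD30 was low in gun4-1, their direction there is fixed by the choice and given as a description. In gun4-1, AT2G41650 (log2 difference -0.77), AT3G62040 (-1.53) and EXPB1 (-2.48) were past the limits, whereas NET1B (-0.55) and AT2G37130 (-0.36) did not. EXPB1 was also lower with GAB (-1.28, limma adjusted p = 0.000406). A correlation above 0.9 with IQD30 was found for 182 of the candidates.

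Among relatives of calmodulin, the sensor that IQD proteins bind, the 1 transcript past the limits rose. Of 8 named calmodulin-like genes none passed the limits with GAB and 1, CML41, rose in gun4-1, where 2.44% of all probe sets rose and 4.46% fell (0.769% and 0.69% with GAB). CML41 had log2 signals of 4.40, 4.30 and 4.37 in Col-0, 4.63, 4.65 and 4.47 with GAB, and 5.35, 4.99 and 4.88 in gun4-1. Its gun4-1 arrays stood above the other 6, by 0.71 on the log2 scale over Col-0 (SE 0.11, limma adjusted p = 0.00734). CML38 differed by 0.62 in gun4-1 without passing (limma adjusted p = 0.0769). The median of the 8 was 0.03 with GAB and 0.25 in gun4-1, beside 9.5e-06 and 0.025 over all probe sets, with 5 of the 8 at mean levels under 6.

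Tubulins form the microtubules on which IQD proteins sit. Of 7 named tubulins none passed with GAB, while in gun4-1 the alpha-tubulin TUA1 rose (2.44% of all probe sets) and the beta-tubulin TUB1 fell (4.46%). TUA1 had log2 signals of 9.22, 9.29 and 9.02 in Col-0, 9.37, 9.31 and 9.20 with GAB, and 10.1, 9.93 and 9.91 in gun4-1 (log2 difference 0.79, SE 0.09, limma adjusted p = 0.000762). TUB1 had 8.47, 8.33 and 8.19 in Col-0, 8.18, 8.18 and 8.32 with GAB, and 7.73, 7.63 and 7.49 in gun4-1 (-0.72, SE 0.09, limma adjusted p = 0.00198). For both genes the gun4-1 arrays stood clear of the other 6. The median of the 7 was -0.11 with GAB and -0.14 in gun4-1, beside 9.5e-06 and 0.025 over all probe sets.

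Of 22 named microtubule-associated genes, 1 fell with GAB and 2 fell in gun4-1, against 0.69% and 4.46% of all probe sets, so that 2 of 22 is near the share over all. Their medians were -0.07 and -0.06, beside 9.5e-06 and 0.025 over all probe sets. Of the 22, 9 had mean levels under 6. TRM24, of the family that recruits the TON1 complex to microtubules, was lower in both. Its mean log2 signal was 4.81 in Col-0, 4.11 with GAB and 4.04 in gun4-1 (n = 3 each), under the level limit of 6 set for the IQD transcripts. The low-ALA groups were alike and well apart from Col-0, by -0.70 with GAB (limma adjusted p = 0.00382) and -0.77 in gun4-1 (0.00036). AT3G23090 (WDL3), a microtubule protein that restrains hypocotyl elongation in light, was lower in gun4-1, by -0.87 (SE 0.18, limma adjusted p = 0.0407), and differed by 0.09 with GAB. KINESIN-12B, a motor of the phragmoplast that builds the new wall in dividing cells, was 1 of 2 named kinesins and fell in gun4-1 by -0.97 (SE 0.17, limma adjusted p = 0.0147). Its mean log2 signals, 5.73 in Col-0, 5.40 with GAB and 4.75 in gun4-1, were also under 6. The other kinesin, KINESIN-13A, differed by -0.01. None of 2 named myosins, which also bind calmodulin through IQ motifs, and none of 3 named genes of wall synthesis passed the limits in any comparison.

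**Figure D4:**
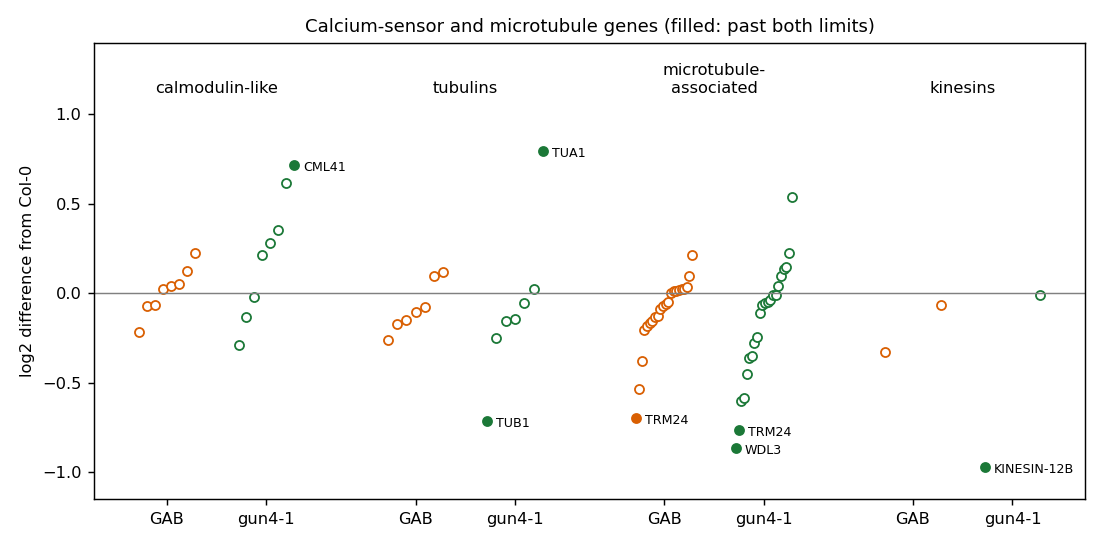
Log2 difference from Col-0 (vertical axis) of named calmodulin-like, tubulin, microtubule-associated and kinesin genes with GAB and in gun4-1; each point is a gene and filled points passed both limits. CML41 (0.71) and TUA1 (0.79) are the filled points above 0, and TRM24 is the filled point under GAB (-0.70).

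Beside the IQD transcripts, the summed signals of markers of dividing and stomatal cells were also lower in every gun4-1 array than in Col-0. The sum of the root markers was lower too, but of these 3 genes only 1, PYK10, differed below 0. Over all probe sets, 4.46% fell past both limits in gun4-1 against Col-0 and 2.44% rose. For 18% of all probe sets every gun4-1 array lay below every Col-0 array. Of 2 named markers of dividing cells, the mitotic kinase AUR1 fell (log2 difference -0.64, limma adjusted p = 0.0176) and AUR2 differed by -0.16. The summed linear signal of the 2 was 459 to 605 in Col-0, 449 to 473 with GAB and 369 to 414 in gun4-1. Of 3 stomatal-lineage markers none passed both limits. SPCH, which starts the stomatal lineage, differed by -0.54 in gun4-1 (limma adjusted p = 0.0382), under the fold limit. The summed signal of the 3 was 108 to 129 in Col-0, 96.1 to 119 with GAB and 87.5 to 92.3 in gun4-1. SPCH is the brightest of the 3, and 2 of the 3 had mean levels under 6. Of 3 root markers none passed against Col-0, and their summed signal was 12214 to 12583 in Col-0, 12035 to 13453 with GAB and 10338 to 11314 in gun4-1. This sum is carried by PYK10, a glucosidase of root endoplasmic reticulum bodies, with a log2 difference of -0.20 in gun4-1. The root-hair expansins EXPA7 (0.56) and EXPA18 (0.12) differed the other way. EXPA7 was higher in gun4-1 than with GAB (0.85, limma adjusted p = 0.0149), where 1.32% of all probe sets rose. Its mean log2 signal was 5.58 in Col-0, 5.29 with GAB and 6.15 in gun4-1. Over all arrays both expansins had mean levels under 6. Of 4 green-tissue genes, 1, LHCB4.3, fell in gun4-1 (-0.66, limma adjusted p = 0.000933), with summed signals of 43824 to 45975 in Col-0, 42890 to 45888 with GAB and 41206 to 44033 in gun4-1. The dimmest marker was the stomatal-lineage gene MUTE, with a mean log2 signal of 3.89 in Col-0. Whether such dim markers were detected was not tested. The part of these cell types in the lower IQD signals was not tested.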

How the data were processed

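RNA of whole seedlings was hybridised to 9 ATH1 GeneChips, 3 for each group of the labels. The deposited values are log2 signals that the authors calculated from the scans by robust multi-array average (background correction, quantile normalization and summary over the probes of a probe set). Affymetrix Expression Console is the software in the submitters' processing notes. This normalization sets the arrays to like distributions, so a signal is relative to its array. Signals of different probe sets are not on a common scale, and the summed signals of markers mainly follow their brightest members. Of 22810 probe sets, 64 Affymetrix controls were left out. The rest were fitted with limma 3.58.1 in R 4.3.3, with all 3 groups in 1 model (6 residual degrees of freedom), Benjamini-Yekutieli adjustment over all 22746 probe sets, and the limits of the study's methods (adjusted p of at most 0.05, fold change above 1.5 or below 0.667). The direct comparison of gun4-1 with GAB was added. The script was tested on simulated data.

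Gene names came from the platform annotation (13513 probe sets with 1 gene, 503 with several and 8730 with none), of which 13436 matched RefSeq. IQD transcripts past the limits, nearest the level limit or with the smallest differences were given in every array; the other members with a mean of at least 6 were also given. Likeness was Pearson's r. The members and lists were chosen with earlier results of these data known, so counts and medians of members and of the calmodulin-like, tubulin and microtubule-associated lists are given beside those of all probe sets. Of the listed groups, 6 kinesin-like symbol matches and 1 epidermal match were wrong genes and were left out. Partner proteins of IQDs, calcineurin B-like proteins with calcium-dependent kinases, and OVATE, xylem, phloem, pollen and seed genes had no probe set with a single matching symbol and were not analysed here. Alternatives covered normalization, scaling, variance model, adjustment, level limit, samples in the fit and each array left out. Array number limits the precision: an exact two-sided permutation test of 3 against 3 cannot go below 0.1. No coordinates or sequences are given.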

Additional observations from a re-analysis of the deposited data

How the results depend on the processing

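The count of IQD transcripts past the limits with GAB was 0 in every alternative. In gun4-1 against Col-0 the count of 3 became 2 with quantile normalization or a level limit of 7, and 1 (IQD30) with array medians set equal. It became 0 by Student's t-test with the same adjustment and fold limit, and ran from 2 to 3 when 1 array was left out. In gun4-1 against GAB the count of 1 became 0 with quantile normalization, array medians set equal, only the 2 groups in the fit, a level limit of 7 and that t-test. It ran from 0 to 1 when 1 array was left out. Setting array medians equal shifts differences in gun4-1 by 0.098; the fold limit then excludes IQD21 (-0.52) and IQD23 (-0.53), as quantile normalization does for IQD23 (-0.54), with limma adjusted p still under the limit. All 9 transcripts stayed below 0 in gun4-1 with both.

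The median with GAB (-0.22) became -0.066 at a level limit of 5 and -0.031 without a limit, and ran from -0.29 to -0.15 when 1 array was left out. That in gun4-1 (-0.48) became -0.41 with quantile normalization, -0.38 with array medians set equal, -0.33 at a level limit of 5, -0.40 at a limit of 7 and -0.28 without a limit, and ran from -0.53 to -0.30 when 1 array was left out. That between gun4-1 and GAB (-0.15) became -0.091 with array medians set equal and ran from -0.22 to -0.12. Array weights, trended variance, Benjamini-Hochberg adjustment, adjusted p alone and leaving out dim probe sets before the fit kept all 3 counts. So did a fit of probe sets with 1 named gene, chosen after seeing the data.

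With the replicate number as a block, the count in gun4-1 against Col-0 stayed at 3 and that against GAB became 0 (IQD23, limma adjusted p = 0.0513). Deviations of same-numbered arrays correlated at r = -0.07 to 0.26, above 0.1 in 6 of 9 pairs. Since this did not hold in every pair and no source ties the numbers to a shared batch, the arrays were not treated as paired; shared handling of some was not tested.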

Other observations

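Equal values recur between arrays in the deposited table. In 10166 probe sets at least 2 arrays held the same value, and 3 of the 9 IQD transcripts did so: IQD24 (6.95 in 1 GAB and 1 gun4-1 array), IQD28 (7.76 in 2 GAB arrays) and IQD31 (8.45 in 1 Col-0 and 1 GAB array). The SD of IQD28 over the GAB arrays was 0.0065, against 0.20 in Col-0 and 0.09 in gun4-1. The other 6 transcripts, with IQD21, IQD23 and IQD30 among them, held no repeated value.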
